A study of Mus musculus with 137 samples.

Results

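The villus of the mouse duodenum after 7 days of 20 ppm hexavalent chromium, Cr(VI), in drinking water was compared with the untreated villus of the same exposure time. The libraries were taken by their labels: 4 villi exposed to 20 ppm Cr(VI) and 5 villi given 0 ppm, both for 7 days, which together are 9 libraries from 9 of the 71 mice of the series, beside 128 other libraries. All were female B6C3F1 mice with no transgene, and Cr(VI) was given as sodium dichromate dihydrate, ad libitum. Their ages were not given. Tissue came from formalin-fixed, paraffin-embedded sections of the duodenum, with the crypts dissected away from a section and the villi from the section beside it, and RNA was taken from the tissue left on each slide. Each library therefore held every cell of the remaining tissue, including lymphocytes and stroma, and fewer cells of a type and less RNA per cell cannot be told apart. Expression was measured by TempO-Seq, in which pairs of short probes are ligated on a transcript and counted by sequencing. Levels are in counts scaled to a common library size by TMM factors (CPM, counts per 1e6). The 9 villi had 2356120 to 4367596 counts, and 13305 to 20394 of the 30146 probes were detected.

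The villus is the absorptive surface of the small intestine. Its enterocytes digest and take up sugars, peptides, fat, iron and vitamins, conjugate or pump out foreign compounds, and are renewed from the crypts below, and lymphocytes lie between them. NRF2 is the transcription factor that raises enzymes of glutathione and NADPH metabolism under oxidative or electrophilic stress, by binding antioxidant response elements. The glucocorticoid receptor raises genes such as Tsc22d3 and Sgk1 when it binds its own elements.

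The summed level of 12 enterocyte markers was 64340 to 126700 CPM in the exposed villi and 72460 to 94140 CPM in 4 of the untreated villi, and that of 12 crypt stem and proliferation markers was 248 to 489 CPM and 263 to 523 CPM in the same libraries. The untreated villus of mouse 48 stood apart, with 47990 CPM of enterocyte markers, 1091 CPM of stem and proliferation markers and 20020 CPM of Paneth cell markers, against 2545 to 9175 CPM of Paneth cell markers in the other untreated villi. These values lay near those of the crypts, so results are also given without this library. In the crypt, the untreated library of mouse 49 went against its label in the other direction, with 76030 CPM of enterocyte markers and 458 CPM of stem and proliferation markers. Of the 12 enterocyte markers, sucrase-isomaltase (Sis) had 0 counts in all 9 villi and the other 11 were detected. Pairs of the 9 libraries correlated at 0.80 to 0.90 across probes on the log2(CPM + 1) scale.

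**Figure D1:**
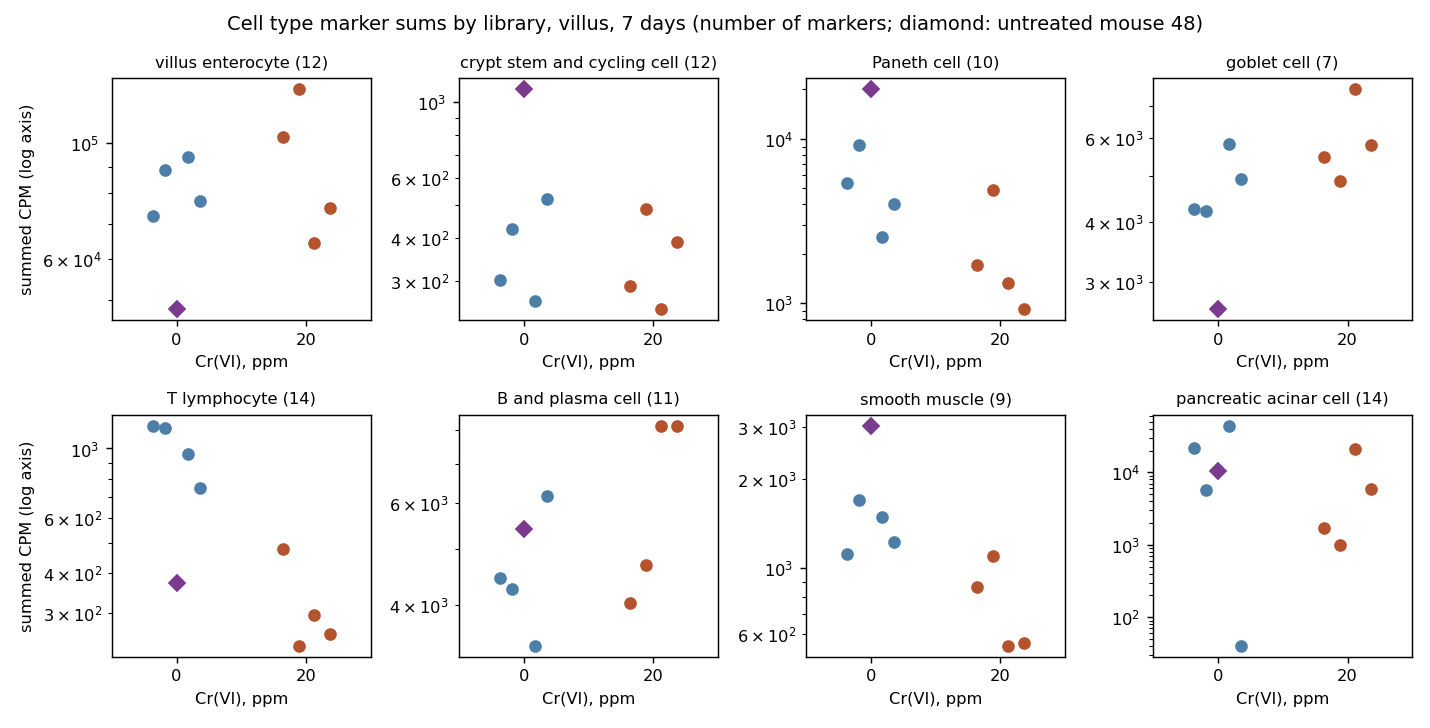
Summed CPM of 8 lists of cell type markers in each of the 9 villi after 7 days (log axis), with the number of markers in brackets; circles are libraries and the diamond is the untreated villus of mouse 48. The T lymphocyte sums of the exposed villi (235 to 478 CPM) lay below those of the untreated villi other than mouse 48 (749 to 1178 CPM), and mouse 48 had the highest stem, Paneth cell and smooth muscle sums.

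Promoters of genes that differed at 20 ppm are shown because they hold the sequence element of the regulators described above. They are RefSeq windows on GRCm38.p6 from 250 bases before to 50 bases after the start of transcription, printed 5′ to 3′ on the strand of the gene, with the match in capitals. Gsta3 (a glutathione transferase, chr1:21240335-21240634, plus strand), Sod1 (copper-zinc superoxide dismutase, chr16:90220512-90220811, plus strand) and Rnd3 (chr2:51149062-51149361, minus strand) were higher and hold a match to the antioxidant response element, TGACNNNGC, on the opposite strand in Sod1 and Rnd3. In Rnd3 the match lies after the start. Sgk1 (serum and glucocorticoid-regulated kinase, chr10:21993640-21993939, plus strand) was lower and holds a match to the glucocorticoid response element, a palindrome of 2 receptor sites. That motif was added after the gene values had been seen.
Gsta3: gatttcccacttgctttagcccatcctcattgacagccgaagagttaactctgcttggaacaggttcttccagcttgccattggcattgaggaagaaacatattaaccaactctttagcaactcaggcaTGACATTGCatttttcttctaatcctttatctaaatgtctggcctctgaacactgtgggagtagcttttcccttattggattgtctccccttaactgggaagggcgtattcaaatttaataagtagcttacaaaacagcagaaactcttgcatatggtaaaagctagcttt
Sod1: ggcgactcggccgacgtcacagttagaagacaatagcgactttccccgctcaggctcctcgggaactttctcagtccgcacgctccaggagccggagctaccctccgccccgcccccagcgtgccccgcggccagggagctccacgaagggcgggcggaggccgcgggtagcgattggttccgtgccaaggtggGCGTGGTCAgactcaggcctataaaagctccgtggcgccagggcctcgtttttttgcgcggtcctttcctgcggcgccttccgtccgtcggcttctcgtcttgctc
Rnd3: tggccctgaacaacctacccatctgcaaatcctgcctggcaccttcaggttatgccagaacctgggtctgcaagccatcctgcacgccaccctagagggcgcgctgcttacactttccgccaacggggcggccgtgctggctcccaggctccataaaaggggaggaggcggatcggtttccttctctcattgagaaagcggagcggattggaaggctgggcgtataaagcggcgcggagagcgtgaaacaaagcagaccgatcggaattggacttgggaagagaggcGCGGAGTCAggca
Sgk1: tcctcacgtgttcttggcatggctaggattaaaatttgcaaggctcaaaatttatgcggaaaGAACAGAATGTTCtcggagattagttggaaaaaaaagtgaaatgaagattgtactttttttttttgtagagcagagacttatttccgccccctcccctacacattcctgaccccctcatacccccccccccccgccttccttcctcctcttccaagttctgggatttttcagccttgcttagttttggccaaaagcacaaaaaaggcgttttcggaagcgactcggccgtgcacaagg
Both strands were searched. The antioxidant element was found in 15.3% of 14182 promoters of genes tested, in 38 of 165 promoters of genes called higher (23%) and in 27 of 246 of genes called lower (11%). The glucocorticoid element was found in 0.501% of all promoters, in 0 of the 165 and in 2 of the 246. Of 7 NRF2 targets called higher with a window, 3 held the antioxidant element, and Gsta1 and Cbr3 did not. Of 3 glucocorticoid-induced genes called lower with a window, 1 held the glucocorticoid element, Sgk1, in the window printed and not in its other windows. Tsc22d3 did not hold it. A match is a description of the letters in these windows. Of the named genes, 87 of 103 had a window.

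At 20 ppm and 7 days, 654 of 19020 genes tested were differentially expressed genes (DEGs), 3.44% of all, at an adjusted p under 0.1, and 278 were higher and 376 lower than in the untreated villus. Counting 1 probe a gene, 214 of 18998 genes were higher (1.13%) and 333 were lower (1.75%), and 476 genes (2.51%) had exposed and untreated libraries that did not overlap. The DEGs numbered 558 without mouse 48. Leaving out 6 of the 9 libraries moved the count by more than 1.5 times. It was 428, 374 and 1053 without the untreated mice 46, 47 and 50, and 375, 265 and 203 without the exposed mice 366, 368 and 369. DESeq2 called 1337 genes, among them 605 of the 654, and a fit of the 2 groups alone called 184. The 12 genes in each direction that had the smallest adjusted p among genes without overlap of the groups kept their calls without each of the 9 libraries in turn. They are called the leading genes here. Small adjusted p and absence of overlap were how they were chosen, so neither is separate support for them.

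Several enzymes of glutathione conjugation, NADPH supply and carbonyl reduction were higher in the exposed villi. Of 36 known NRF2 target genes tested, 8 were higher and none was lower, with a median log2 fold change of 0.55 against -0.13 over all genes. Without mouse 48, 7 were higher, and without mouse 369 there were 4. The 8 were the glutathione transferases Gsta1, Gsta2, Gsta3, Gsta4 and Gstp1, the carbonyl reductase Cbr3, Pgd of the pentose phosphate pathway and Sod1. Gsta4, which conjugates lipid aldehydes, had 80.5, 104, 48.8, 68.5 and 62.4 CPM in the untreated villi and 229, 245, 502 and 223 CPM in the exposed villi. No exposed value lay within the untreated range, and the log2 fold change was 2.04 ± 0.42 (SE; adjusted p = 0.002841). Cbr3 was 31.5 ± 10.6 CPM (SD, n = 5) in untreated and 138 ± 49.5 CPM (SD, n = 4) in exposed villi, a log2 fold change of 2.14. Gsta1, the most abundant of these transferases, was 514 to 800 CPM in untreated and 1703 to 3037 CPM in exposed villi, a log2 fold change of 1.78 ± 0.40 (SE; adjusted p = 0.007664). Gsta4, Cbr3 and Gsta1 kept their calls without each of the 9 libraries.

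The other 5 NRF2 targets rested on more libraries. Gstp1, at 485 to 602 CPM in untreated and 739 to 1164 CPM in exposed villi (log2 fold change 0.91), lost its call without mouse 369 (adjusted p = 0.1143). Pgd, at 29.7 to 106 CPM and 143 to 202 CPM, lost it without mouse 369 (adjusted p = 0.1204) and without mouse 48. Gsta2, at 176 to 436 CPM and 511 to 1203 CPM, lost it without 4 of the 9 libraries, Sod1 without 6 and Gsta3 without 8, with adjusted p values of up to 0.2416, 0.1902 and 0.1928. Gsta3 had 20.4 to 58.3 CPM in untreated and 64.8 to 100 CPM in exposed villi, with no overlap, while 1 untreated value of Sod1 (107 CPM in mouse 50) lay above the lowest exposed value of 97.5 CPM. The members of the Gsta family share sequence, and how far their probes cross-react is not known. Of the 28 NRF2 targets that did not pass, the quinone reductase Nqo1 was at 22.6 to 92.5 CPM and 64.8 to 134 CPM (log2 fold change 0.95, adjusted p = 0.121) and heme oxygenase Hmox1 had counts in only 1 untreated and 2 exposed villi. Gclm (-0.42), Txnrd1 (-0.02) and Srxn1 (-0.32), which serve glutathione synthesis and thiol reduction, had log2 fold changes below 0 and did not pass.

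A drug efflux pump and enzymes of aldehyde metabolism were among the leading higher genes. Abcb1a, the P-glycoprotein pump that returns foreign compounds to the lumen, had 82.1, 109, 92.3, 131.5 and 113.5 CPM in the untreated villi and 447, 574, 223 and 370 CPM in the exposed villi. The groups did not overlap, and the log2 fold change was 1.94 ± 0.30 (SE; adjusted p = 1.451e-05). Aldh1a1, a retinal dehydrogenase, was 5.13 to 16.6 CPM in untreated and 38.8 to 70.1 CPM in exposed villi, a log2 fold change of 2.53. Akr1c12, an aldo-keto reductase, was 291 to 368 CPM and 749 to 1319 CPM, a log2 fold change of 1.5. Gsto2, a glutathione transferase of the omega class, was detected in 1 of 5 untreated villi, at 7.04 CPM, and in all 4 exposed villi at 10.3 to 45.1 CPM. Of 51 genes of xenobiotic metabolism, 5 were higher and 1 lower, 3 and 2 without mouse 48, and 2 were higher without mouse 46. The lower gene was Cyp27a1, the mitochondrial sterol 27-hydroxylase, at 14.9 to 42.5 CPM in untreated and 0 to 4.705 CPM in exposed villi. Its log2 fold change was -3.15. Abcb1a, Aldh1a1 and Cyp27a1 kept their calls without each library, whereas Cyp4f40, Ces1f and Por, also higher, lost theirs without 6, 8 and 6 of the 9 libraries (adjusted p up to 0.2338, 0.2141 and 0.2806).

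**Figure D2:**
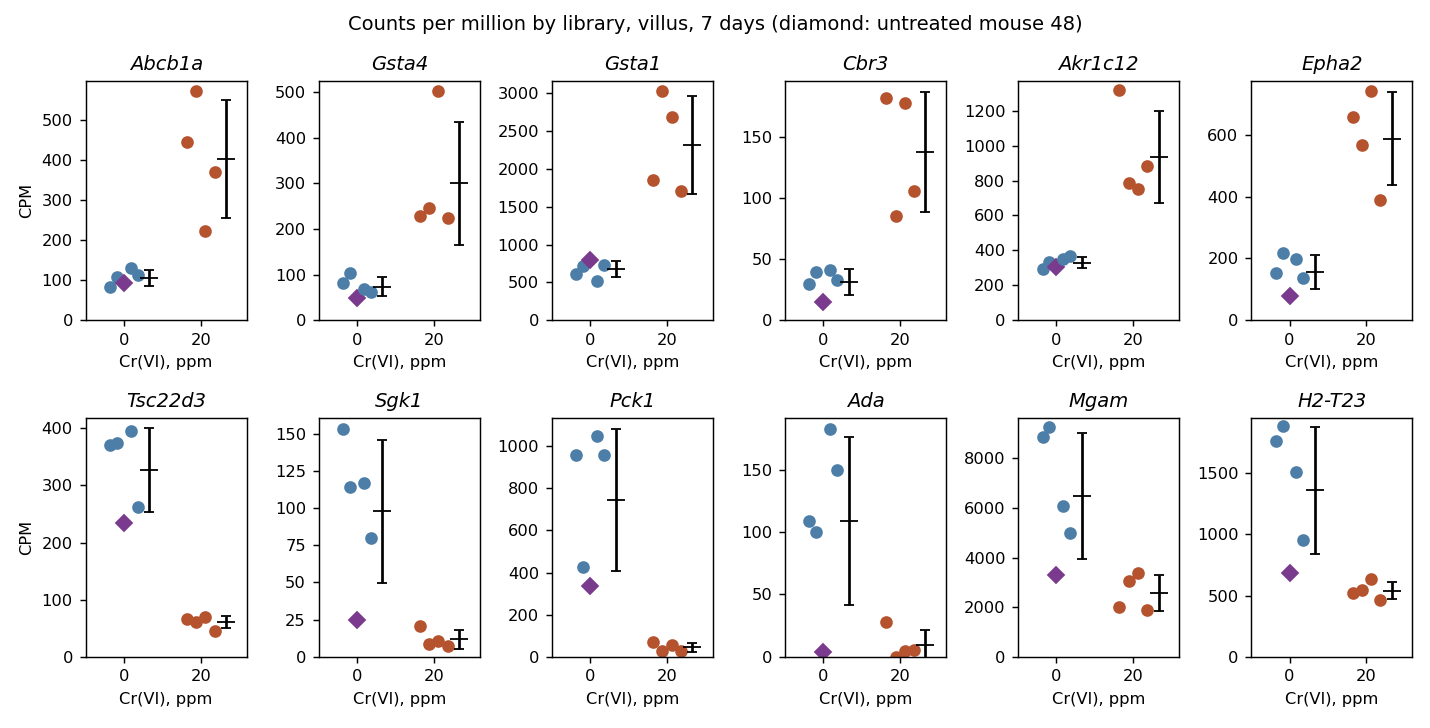
CPM of 12 named genes in each of the 9 villi after 7 days at 0 and 20 ppm Cr(VI) (linear axes from 0); circles are libraries, the diamond is untreated mouse 48, and the bar beside each group is the mean ± SD. Abcb1a, Gsta4, Gsta1, Cbr3, Akr1c12 and Epha2 did not overlap between groups and were higher at 20 ppm, and Tsc22d3, Sgk1, Pck1 and H2-T23 did not overlap and were lower, while for Ada and Mgam only mouse 48 lay among the exposed values. Abcb1a, Gsta4, Akr1c12, Epha2, Tsc22d3, Sgk1 and Pck1 were chosen partly for absence of overlap.

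The other 7 of the 12 leading higher genes were of mixed function. Epha2, a receptor tyrosine kinase for ephrins at cell contacts, had 153, 219, 77.7, 197 and 137.5 CPM in untreated and 658, 567, 742 and 389 CPM in exposed villi, a log2 fold change of 1.91 ± 0.32 (SE; adjusted p = 5.462e-05). Dusp6, the phosphatase that inactivates ERK kinases, was 33.2 to 97.4 CPM and 177 to 287 CPM, a log2 fold change of 1.6. Rnd3 was 9.84 to 25.4 CPM and 36.8 to 81.7 CPM, a log2 fold change of 1.74. Tm4sf5, a tetraspanin-like membrane protein, was 148 to 354 CPM and 557 to 948 CPM, a log2 fold change of 1.69. Arih2, a ubiquitin ligase, was 11.1 to 52.8 CPM and 58.8 to 115 CPM, and Ppp2r2a, a regulatory subunit of protein phosphatase 2A, was 0 to 8.46 CPM and 11.3 to 42 CPM. Myh3, the embryonic myosin heavy chain, was at 0 in 3 untreated villi and at 1.61 and 4.59 CPM in the others, and at 12.1 to 50.9 CPM in all exposed villi. Absence of overlap was part of how these 7 genes were chosen, as it was for every leading gene. The smooth muscle marker sum moved the other way from Myh3, at 549 to 1100 CPM in exposed and 1121 to 3016 CPM in untreated villi.

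Some genes that glucocorticoids induce were lower at 20 ppm. Of 19 tested, 5 were lower and none higher, also without mouse 48, and 3 were lower without mouse 369. Tsc22d3, the glucocorticoid-induced leucine zipper GILZ, had 371.2, 374.5, 234.4, 394.4 and 262.5 CPM in untreated and 66.7, 61.5, 69.1 and 44.8 CPM in exposed villi. The lowest untreated value was above every exposed value, and the log2 fold change was -2.44 ± 0.34 (SE; adjusted p = 9.106e-07). Sgk1 had 153, 114, 24.8, 117 and 79.9 CPM in untreated and 20.7, 8.37, 10.5 and 7.197 CPM in exposed villi, a log2 fold change of -3.09 ± 0.53 (SE; adjusted p = 0.0001026). Zbtb16, a zinc finger transcription factor, was 2.68 to 64 CPM in untreated villi and was detected in 1 exposed villus, at 5.65 CPM, above the lowest untreated value. Angptl4, an inhibitor of lipoprotein lipase, was 64.5 to 192 CPM and 16.3 to 48.5 CPM, and Pdk4, which inhibits pyruvate dehydrogenase, was 31.6 to 91 CPM and 8.86 to 19.4 CPM. These last 2 are also PPAR alpha targets. Angptl4 lost its call without mouse 369 (adjusted p = 0.1022) and Pdk4 without mouse 369 (adjusted p = 0.1343) and mouse 367. Tsc22d3, Sgk1 and Zbtb16 kept theirs without each library.

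The list did not move as a whole. Fkbp5, another glucocorticoid-induced gene, was 48.5 to 125 CPM in untreated and 7.67 to 78 CPM in exposed villi and did not pass (log2 fold change -0.84, adjusted p = 0.327). Per1 and Mt1 were near or at 0, so the median of the list was -0.71 as fitted and -0.06 with such genes set to their bounds. The receptor itself, Nr3c1, was 46.7 to 83.3 CPM and 68.2 to 112 CPM and did not pass (log2 fold change 0.44, adjusted p = 0.402).

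Pck1 and 2 enzymes of purine breakdown, Xdh and Ada, were lower. Pck1, phosphoenolpyruvate carboxykinase and the rate-limiting enzyme of gluconeogenesis, had 959, 426, 334, 1050 and 956 CPM in untreated and 69.7, 28.6, 57.8 and 25.7 CPM in exposed villi. No exposed villus reached the untreated range, and the log2 fold change was -4.06 ± 0.57 (SE; adjusted p = 9.106e-07). Xdh, xanthine dehydrogenase, was 94.2 to 295 CPM and 60.3 to 78 CPM, a log2 fold change of -1.69. Ada, adenosine deaminase of the villus tip, had 109, 99.9, 3.78, 182 and 150 CPM in untreated and 27.5, 0, 4.85 and 5.26 CPM in exposed villi, so that mouse 48 alone lay among the exposed values. Its log2 fold change was -3.65 ± 0.68 (SE; adjusted p = 0.0005069). Of 28 genes of gluconeogenesis and intermediary metabolism, 4 were lower and 1 was higher. The fourth lower gene, the urea cycle enzyme Ass1, lost its call without 5 of the 9 libraries (adjusted p up to 0.2054), and the higher gene, the monoamine oxidase Maoa, at 675 to 1047 CPM and 1341 to 2077 CPM, without 7 (adjusted p up to 0.1776). The other gluconeogenic enzymes Fbp1 (log2 fold change -0.77, adjusted p = 0.408) and G6pc (-0.49, adjusted p = 0.743) did not pass.

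Digestive enzymes and carriers gave few calls. Among 24 brush border genes, 3 were lower and none higher, with a median log2 fold change of -0.34, and 4 were lower without mouse 48. Mgam, maltase-glucoamylase, had 8848, 9272, 3304, 6064 and 4990 CPM in untreated and 2019, 3038, 3375 and 1897 CPM in exposed villi, a log2 fold change of -1.33 ± 0.27 (SE; adjusted p = 0.002765). Enpp3, an ectonucleotide pyrophosphatase, had 2988, 3126, 241, 3564 and 3556 CPM and 764, 467, 807 and 539 CPM, a log2 fold change of -2.07 ± 0.45 (SE; adjusted p = 0.005156). Mouse 48 was the only untreated villus within the exposed range for Mgam and lay below it for Enpp3, and both genes kept their calls without each library. Enteropeptidase, Tmprss15, was at 0 in all exposed and 2 untreated villi and at least 6.83-fold lower by a floor of 3 counts for the group, a call lost without 3 libraries. Alkaline phosphatase Alpi, at 710 to 2030 CPM and 963 to 2407 CPM, did not pass (log2 fold change -0.08).

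Npc1l1, the cholesterol uptake carrier, was 163 to 362 CPM in untreated and 63.8 to 156 CPM in exposed villi, a log2 fold change of -1.45 ± 0.30 (SE; adjusted p = 0.002765). Plin2, which coats lipid droplets, was 136.8 to 392 CPM and 377 to 532 CPM, with only mouse 50 among the exposed values, a log2 fold change of 1.11 ± 0.26 (SE; adjusted p = 0.008462). Both kept their calls without each library. The fatty acid carrier Cd36 (-1.73) was lower and Sar1b (0.93), a GTPase needed for chylomicron export, was higher, and Cd36 lost its call without mice 366 and 368 (adjusted p up to 0.1933) and Sar1b without mouse 366 (adjusted p = 0.1284). Thus 2 genes were higher and 2 lower among the 28 of fat absorption. Of 28 nutrient transporters, 3 were lower and 1 higher, and none of these 4 calls held without each library. The concentrative nucleoside carrier Slc28a2 was 1.08 to 31 CPM and 0 to 3.88 CPM, the neutral amino acid carrier Slc6a19 was 186 to 685 CPM and 236 to 295 CPM, the phosphate carrier Slc34a2 was at 0 in all exposed villi and at least 14.9-fold lower, and the ascorbate carrier Slc23a1 was at 0 in all untreated villi and at least 6.90-fold higher.

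Iron handling gave 3 lower and 1 higher gene of 18, and none held without each library. Ferritin heavy chain, Fth1, which stores iron, had 7115, 10380, 3426, 5787 and 5365 CPM in untreated and 2977, 3084, 3697 and 2100 CPM in exposed villi, a log2 fold change of -1.11 ± 0.34 (SE; adjusted p = 0.07353). The iron sensor Ireb2 was 425 to 1754 CPM and 456 to 820 CPM (-0.85), the ferric reductase Cybrd1 was 0 to 33.9 CPM and 0 to 5.28 CPM (-3.63), and the heme synthesis enzyme Alas1 was 8.05 to 28.1 CPM and 23.1 to 56.2 CPM (1.52). Calls were lost without 5, 5, 5 and 4 of the 9 libraries for Fth1, Ireb2, Cybrd1 and Alas1, at adjusted p values of up to 0.2528 for Fth1, 0.2704 for Cybrd1 and 0.1793 for Alas1. The importer Slc11a2, the exporter Slc40a1 and the transferrin receptor Tfrc did not pass. None of 16 genes of metallothioneins and of zinc and copper transport passed, and 2 were higher without mouse 50.

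Some transcripts of lymphocytes and of antigen presentation were lower. Granzyme A, Gzma, a protease of cytotoxic and intraepithelial lymphocytes, had 612, 710, 189, 473 and 302 CPM in untreated and 187, 98.7, 141 and 63.1 CPM in exposed villi. The lowest untreated value (188.6 CPM, mouse 48) lay just above the highest exposed one (187.3 CPM, mouse 366), and the log2 fold change was -1.91 ± 0.40 (SE; adjusted p = 0.003208). Granzyme B, Gzmb, was 11.3 to 42.7 CPM and 4.18 to 9.13 CPM, and the receptor Klrd1 was 12.4 to 66 CPM and 0 to 23.7 CPM. Of 14 T lymphocyte markers, these 3 were lower and none higher, 1 was lower without mouse 46, and 5 were lower without mouse 48, which itself had a low T lymphocyte sum of 372 CPM. The sums were 749 to 1178 CPM in the other untreated and 235 to 478 CPM in the exposed villi. Cd160 was at 0 in all 9 villi. Cd3e (-1.05, adjusted p = 0.301) and Cd3g (-1.16, adjusted p = 0.299), chains of the T cell receptor complex, and Cd8a did not pass. Gzma kept its call without each library, while Gzmb lost it without 5 (adjusted p up to 0.1387) and Klrd1 without 6 (adjusted p up to 0.3525).

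Among the 27 genes of antigen presentation, 3 were lower and none higher, 4 were lower without mouse 48, and 1 without mouse 368. H2-T23, a nonclassical MHC class I chain, had 1760, 1882, 686, 1511 and 958 CPM in untreated and 520, 542, 636 and 466 CPM in exposed villi, a log2 fold change of -1.33 ± 0.27 (SE; adjusted p = 0.002754). The classical class I chain H2-K1 was 504 to 1386 CPM and 427 to 807 CPM (-0.84), and the class II invariant chain Cd74 was 427 to 1254 CPM and 331 to 475 CPM (-1.27). H2-K1 lost its call without mouse 369 (adjusted p = 0.1532) and mouse 368, and Cd74 without 8 of the 9 libraries. Probes of MHC genes may share sequence. Of 43 interferon-induced genes, 2 were lower, the helicase Ddx60 (-1.77) and the GTPase Irgm2 (-2.10), and the median was -0.45. They lost their calls without 2 and 4 of the 9 libraries (adjusted p up to 0.1534 and 0.2040). Surface proteins of the lectin and immunoglobulin families were among the 12 leading lower genes, Clec2d, a ligand of an inhibitory natural killer cell receptor, at 209 to 368 CPM and 75.1 to 141 CPM (-1.31), and Cd200r2, at 12.7 to 42.6 CPM in untreated villi and 3.69 CPM in 1 exposed villus. The T lymphocyte sums above moved with this group, and their part in it was not tested.

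Other leading lower genes had varied functions. Fut4, a fucosyltransferase that makes Lewis x structures, had 30.2, 58, 11.6, 23 and 13.9 CPM in untreated villi and 3.77 CPM in mouse 366 but 0 in the other exposed villi, a log2 fold change of -5.03 ± 0.83 (SE; adjusted p = 5.462e-05). Erbb3, a receptor of the EGF receptor family, was 770 to 1236 CPM and 316 to 527 CPM (-1.32). Tnik, a kinase that works with TCF4 in Wnt signalling, was 86.9 to 136 CPM and 24.9 to 60.7 CPM (-1.48). The apolipoprotein L family gene Apol7a was 44 to 152 CPM and 0 to 24.1 CPM (-2.77), Vwa8, a mitochondrial ATPase, was 228 to 408 CPM and 87.7 to 139 CPM (-1.41), and Nckap5 was 16.5 to 123 CPM and 9.13 to 15.8 CPM (-2.73).

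Some subunits of the respiratory chain were higher. Of 83 subunits of oxidative phosphorylation, 8 were higher and none lower, with 66 of 83 log2 fold changes above 0 and a median of 0.32, and 9 were higher without mouse 48, 15 without mouse 50 and 5 without mouse 368. The 8 included 5 subunits of cytochrome c oxidase, Cox6b1, Cox5b, Cox6a1, Cox7c and Cox7a1. Cox6b1 had 337, 282, 292, 281 and 388 CPM in untreated and 628, 542, 890 and 736 CPM in exposed villi, a log2 fold change of 1.143 ± 0.25 (SE; adjusted p = 0.005148). Cox5b was 29 to 91.9 CPM and 92.1 to 175 CPM (1.38), and Cox6a1 was 10.1 to 51.4 CPM and 62.3 to 86.9 CPM (1.54). Atp5k of the ATP synthase was 63.2 to 171 CPM and 168 to 270 CPM (1.04), with mouse 50 alone in the exposed range. These 4 kept their calls without each library, whereas Cox7c, Ndufa12, Ndufv3 and Cox7a1 lost theirs without 4, 5, 5 and 3 libraries. Of 83 tRNA synthetases and translation factors, 3 were higher, Eef1a1, Eif4a1 and Sars, and each lost its call without 4 or more libraries. In that list 60 of 83 log2 fold changes were above 0, with a median of 0.30. It was 54 of 81 (median 0.15) for cytosolic ribosomal proteins and 28 of 44 (median 0.24) for proteasome subunits. Over all genes 7128 of 18998 were above 0, so the upward shift was not particular to the respiratory chain.

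Of 32 hypoxia-induced genes, 5 were higher and none was lower, with a median of -0.05, and 2 were higher without mouse 46. Egln3, a prolyl hydroxylase that marks HIF alpha for degradation, had 12.5, 11.7, 17.8, 20 and 18.7 CPM in untreated and 66.3, 18.5, 84 and 53.7 CPM in exposed villi, so that mouse 367 lay in the untreated range. Its log2 fold change was 1.75 ± 0.38 (SE; adjusted p = 0.005255). Ero1l, the oxidase that forms disulfide bonds in the endoplasmic reticulum, was 196 to 318 CPM and 439 to 654 CPM (0.995). Both kept their calls without each library. Hif1a, Aldoa and Ldha lost theirs without 4, 5 and 8 libraries (adjusted p up to 0.2415, 0.3128 and 0.1739). Slc2a1 and Vegfa, the glucose carrier and growth factor that hypoxia raises, had log2 fold changes of -0.11 and -0.85 and did not pass. Of 30 genes of protein folding and quality control in the endoplasmic reticulum, 1 was lower and 1 higher, with a median log2 fold change of -0.06. Herpud1 was lower, at 117 to 178 CPM and 50.5 to 71.5 CPM (-1.32), and kept its call without each library. P4hb was higher (0.87, adjusted p = 0.0935) and lost its call without 8 of the 9 libraries.

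Some antimicrobial and stromal transcripts were lower, and their calls were lost without mouse 48, while the log2 fold changes stayed below 0. The median of the Paneth cell markers was -1.75 with that library and -1.27 without it, that of the smooth muscle markers -1.05 and -0.88, and that of the fibroblast markers -0.56 and -0.13. Of 10 Paneth cell markers 5 were lower, Defa24, Mmp7, Ang4, Lyz1 and Defa22, and none without mouse 48, whose Paneth cell sum was 20020 CPM against 924 to 4905 CPM in exposed villi. Itln1 was at 0 in all 9 villi. Lysozyme 1, Lyz1, had 760, 1122, 2430, 342 and 660 CPM in untreated and 260, 734, 180 and 171 CPM in exposed villi, and its log2 fold change was -1.66, and -1.10 without mouse 48 (adjusted p = 0.3216). Defensin genes are near-identical copies, so their probes are uncertain. The antibacterial phospholipase Pla2g2a (-1.99, adjusted p = 0.05587) was also lower with mouse 48 and did not pass without it (-1.43, adjusted p = 0.221) or without 4 other libraries. Of 9 smooth muscle markers 5 (Tpm2, Cnn1, Synpo2, Acta2 and Mylk), and of 10 fibroblast markers 2 (Dcn and Dpt), were lower, and 0 of both without mouse 48. The smooth muscle sum was 1121 to 1695 CPM in the other untreated villi, above the 549 to 1100 CPM of the exposed villi. The 5 Paneth cell, 5 smooth muscle and 2 fibroblast calls were also lost without exposed mouse 369. Those of the Paneth cell markers were lost without mice 366 and 368 too. Of 7 goblet cell markers the mucin Muc2 alone was higher, and not without mouse 48 (adjusted p = 0.129). In the list of epithelial defence genes, the peptide guanylin, Guca2a, a regulator of fluid secretion (12.8 to 29.2 CPM and 52.2 to 79.7 CPM), and the alarmin Il33 (6.96 to 14.5 CPM and 16.2 to 58.1 CPM) were higher. Each lost its call without 4 of the 9 libraries, Guca2a without mice 48, 49, 368 and 369 (adjusted p up to 0.1940) and Il33 without mice 47, 50, 367 and 369 (adjusted p up to 0.2291), and Il33 did not pass with DESeq2 (adjusted p = 0.1495).

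No gene passed among 29 p53 targets, 25 genes of cholesterol synthesis, 20 of the circadian clock and 81 cytosolic ribosomal proteins, and without mouse 48 there were 1 higher gene of cholesterol synthesis and 2 higher ribosomal proteins. Without mouse 50, 2 p53 targets and 6 ribosomal proteins were higher, and 1 p53 target and 1 clock gene were lower. Without mouse 367, 1 ribosomal protein and 3 cell cycle genes were lower. In the cell cycle list 1 of 45 genes, the phosphatase Cdc25b, was higher, at 0 to 9.84 CPM and 5.41 to 47 CPM, and none without mouse 48 (adjusted p = 0.101 for Cdc25b). Among heat shock proteins 2 of 20 were lower, Hspa1b and Hsph1, and without mouse 48 only Hspa1b was (adjusted p = 0.052). Fatty acid oxidation and PPAR alpha targets gave 2 higher genes (Eci2, Cyp4a10) and 2 lower (Angptl4, Pdk4) of 37, junction genes 1 lower (Tjp3) of 33, and proteasome subunits 1 higher (Psmb6) of 44. None of these calls held without each library, and they were lost without 6 of the 9 libraries for Cdc25b, 1 for Hspa1b, 5 for Hsph1, 3 for Eci2, 7 for Cyp4a10, 6 for Tjp3 and 5 for Psmb6. A p above the threshold does not show that a gene was unchanged.

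**Figure D3:**
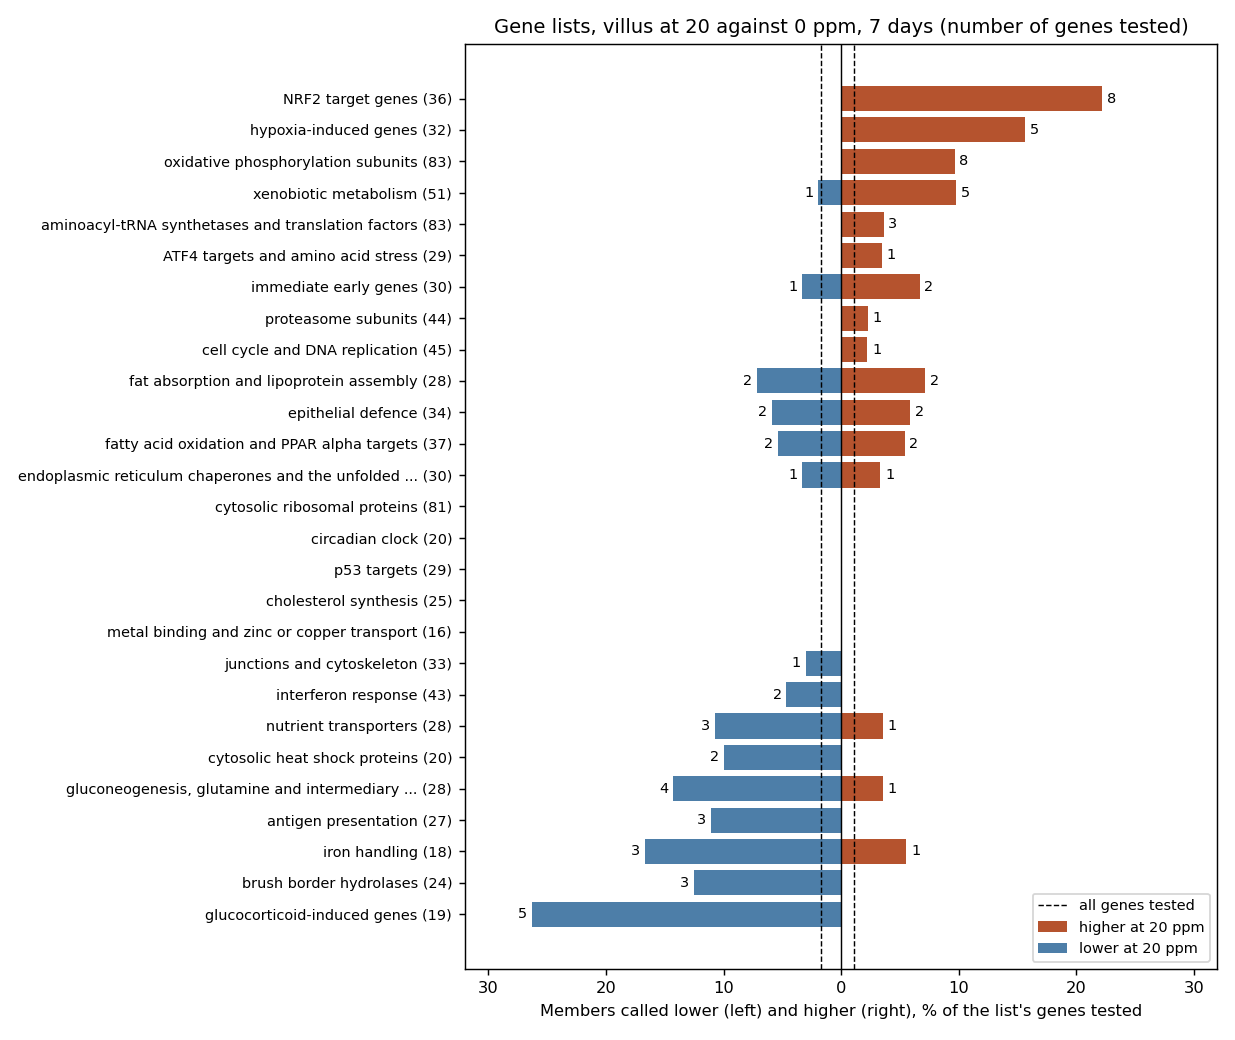
Share of the genes tested in each of 27 lists that were called higher (right) or lower (left) in the villus at 20 ppm and 7 days, with the number of genes tested; dashed lines mark the shares over all genes (1.13% higher and 1.75% lower). NRF2 targets (8 of 36), hypoxia-induced genes (5 of 32) and oxidative phosphorylation subunits (8 of 83) had higher calls only, and glucocorticoid-induced genes (5 of 19) lower calls only.

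Whether these changes were particular to the villus was tested against the crypt, with 5 untreated and 5 exposed libraries. The villus of mouse 370, whose crypt is among the latter, was not analysed here. In the fit without pairing no gene's change at 20 ppm differed between villus and crypt (0 of 19020 genes, 0%; edgeR quasi-likelihood test). Before adjustment 2519 probes had p below 0.05. DESeq2 called 81 genes. With the mouse as a block, which the design allows because villus and crypt came from adjacent sections, 88 genes (0.463%) differed, 19 with a higher and 69 with a lower change in the villus, and 11 of the 69 were defensin genes. Because the villus of mouse 48 and the crypt of mouse 49 went against their labels, the block was also fitted without these 2 mice, and 37 genes differed, 34 of them among the 88. In the fit without pairing the count was 67 without the villus of mouse 367 and 27 without that of mouse 50.

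Fut4 was called in both blocked fits. On the log2(CPM + 1) scale its villus level minus that of the crypt of the same mouse was 1.20, 2.98, -0.21, -0.30 and 0.73 in the 5 untreated mice and -1.62, -3.71, -3.84 and -1.81 in the 4 exposed mice. The difference of changes was -4.66 ± 1.04 without pairing (adjusted p = 0.13), -4.67 with the block (adjusted p = 0.03845) and -5.51 without mice 48 and 49 (adjusted p = 0.007936). Tm4sf5 had a higher change in the villus with the block (1.46, adjusted p = 0.01517), as did Arih2 (1.81, adjusted p = 0.06322) and Dusp6 (1.59, adjusted p = 0.07144), and none of these 3 passed without mice 48 and 49. In the exposed crypts Arih2 was 36 ± 2.85 CPM (SD, n = 5) against 42.9 ± 11.6 CPM (SD, n = 5) in untreated crypts, and Dusp6 was 34.6 ± 7.46 and 38.9 ± 15.4 CPM. Reg3g, an antibacterial lectin chosen after its values were seen, was 1.83 to 2.61 above the crypt on the same scale in exposed mice 366, 368 and 369 and 0.57 in mouse 367, against -1.68 to 0.14 in untreated mice, and its change differed by 2.52 without mice 48 and 49 (adjusted p = 3.77e-05). Its villus levels overlapped, at 78.3 to 746 CPM in exposed and 25 to 207 CPM in untreated mice. In the crypts of the same mice it was 23.7 to 209 CPM and 82.4 to 293 CPM. The Paneth cell genes Pla2g2a (-2.39, adjusted p = 4.437e-07) and Ang4 (-2.26, adjusted p = 0.005293) had lower changes in the villus with the block. Without mice 48 and 49 Pla2g2a passed (-1.64, adjusted p = 0.01751) and Ang4 did not. Villus minus crypt of Pla2g2a overlapped, at -2.82 to 0.75 in untreated and -4.74 to -2.49 in exposed mice, while its SE with the block was 0.374. The p values and counts of the blocked fits may thus understate the spread between mice. The Paneth cell sum of the crypts was 17380 to 28560 CPM in exposed and 2383 to 31720 CPM in untreated mice. Pancreatic acinar genes were also among the 37, and the acinar sums ran from 982 to 21010 CPM in exposed and 40.3 to 43590 CPM in untreated villi, so that their part in these calls was not tested.

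In the crypt itself 59 genes (0.31%) differed at 20 ppm. The log2 fold changes of some named genes were, side by side, -4.06 in villus and -3.80 in crypt for Pck1, -3.09 and -3.76 for Sgk1, -2.44 and -1.44 for Tsc22d3, -1.33 and -1.51 for H2-T23, -1.69 and -1.52 for Xdh, and 1.94 and 1.17 for Abcb1a, all called in both compartments. For Gsta4, Epha2 and Cbr3 they were 2.04 and 0.81, 1.91 and 0.56, and 2.14 and 0.90, with no call in the crypt, and none of these differences between compartments passed with or without the block. The untreated crypts include that of mouse 49, which went against its label. Without this crypt and the villus of mouse 48, the difference of changes (villus minus crypt) moved from -0.26 to -1.15 for Pck1. It moved from 0.67 to -0.33 for Sgk1, 0.18 to -0.325 for H2-T23 and -0.17 to -0.66 for Xdh. Tsc22d3 (-0.996 and -1.085) and Abcb1a (0.77 and 0.51) moved less. None of these passed in either fit. The crypt changes themselves were not refitted without mouse 49.

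At 90 days, 4 untreated and 5 exposed villi gave 3433 genes called (18% of those tested). The change at 20 ppm differed between 90 and 7 days for 2617 genes (13.8%), 1988 upward and 686 downward by any probe. The median difference over all probes was 0.69 on the log2 scale, and with DESeq2 size factors it was 0.38 and the split 1230 upward and 1214 downward, so differences are read against these medians. The count was 1506 without mouse 369 at 7 days and 1707 without untreated mouse 5 at 90 days.

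Of 81 named genes called at 7 days, 77 were plotted against 90 days. Genes with a group at or under the floor of 3 counts at either time were left out. Of the 77, 32 changed differently at 90 days, where 13.8% of all genes did. The 7-day values that chose these genes also enter the difference, which favours differences opposite in sign to the 7-day change. The count of 32 therefore cannot be read against that share. The glucocorticoid-induced genes were among them. Tsc22d3 was 327 ± 73.3 CPM (SD, n = 5) untreated and 60.5 ± 10.9 CPM (SD, n = 4) at 20 ppm after 7 days, and 143 ± 42 CPM (SD, n = 4) and 128 ± 38.2 CPM (SD, n = 5) after 90 days. The difference between the changes was 2.27 ± 0.47 (SE; adjusted p = 0.0006003), and the untreated level at 90 days lay well below that at 7 days. Sgk1 was 97.7 and 11.7 CPM after 7 days and 58.1 and 42.3 CPM after 90 days, a difference of 2.63 (adjusted p = 0.009882). Angptl4 was lower at 7 days and higher at 90 days (log2 fold change 1.49, adjusted p = 0.02275), a difference of 3.53 (adjusted p = 0.000254). Pdk4 (2.10, adjusted p = 0.09891), Zbtb16 (4.60, adjusted p = 0.08737), Npc1l1 (1.25, adjusted p = 0.04278), Fth1 (1.77, adjusted p = 0.01013) and Erbb3 (1.54, adjusted p = 0.001425) also differed upward.

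Some respiratory chain subunits differed downward. Cox5b was 51.7 and 136 CPM after 7 days and 89 and 78.8 CPM after 90 days, a difference of -1.54 (adjusted p = 0.02162), and Cox6a1 (-1.76), Cox6b1 (-1.01), Atp5k (-1.08), Egln3 (-2.06), Aldh1a1 (-2.48) and Tm4sf5 (-1.36) differed in the same direction. Of the other named hypoxia-induced genes, Ero1l was higher at both times, and more so at 90 days (difference 1.36, adjusted p = 0.005565), and Hif1a (0.55) and Aldoa (-0.44) did not pass.

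Other changes had the same direction at both times. The log2 fold changes after 7 and 90 days were -4.06 and -5.14 for Pck1, -3.65 and -4.84 for Ada, -1.33 and -1.51 for Mgam, -2.07 and -2.48 for Enpp3, -1.69 and -1.48 for Xdh, 1.94 and 2.14 for Abcb1a, 1.91 and 2.53 for Epha2, 1.78 and 2.11 for Gsta1, 2.04 and 1.501 for Gsta4 and 2.14 and 1.82 for Cbr3. Each was called at both times, and the difference between times did not pass for any of these 10 genes. For Abcb1a that difference was 0.21 ± 0.42 (SE) and for Pck1 it was -1.08 ± 0.74 (SE), against a median of 0.69 over all probes. A difference that did not pass does not show that the changes were equal.

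**Figure D4:**
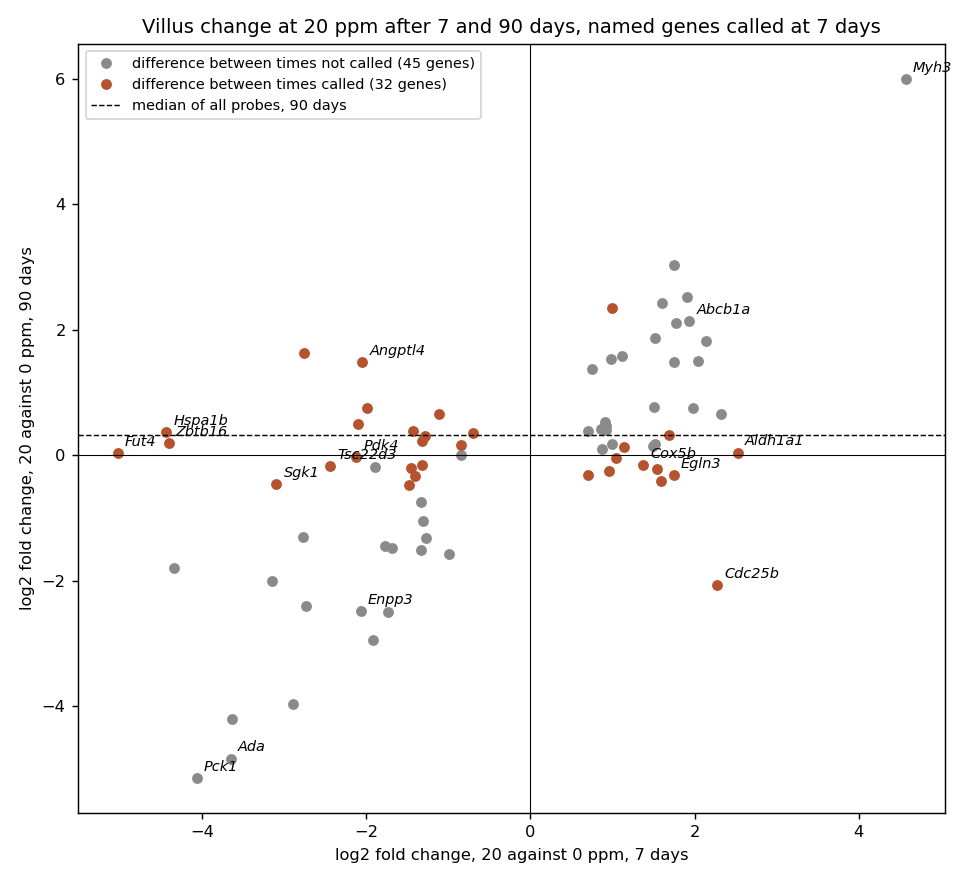
Log2 fold change at 20 against 0 ppm in the villus after 7 days (x axis) and after 90 days (y axis) for 77 named genes called at 7 days. Named genes with a group at or under the floor at either time were left out. Red points are the 32 genes whose changes differed between the times, and the dashed line is the median of all probes at 90 days. Pck1, Ada, Enpp3, Abcb1a and Myh3 lie far from 0 on both axes, while Tsc22d3, Sgk1 and Zbtb16 lie near 0 on the y axis.

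Against the neighbouring concentrations at 7 days, villi at 20 ppm were compared directly, so that no control was shared. Between 60 and 20 ppm 62 genes (0.326%) were called, and between 20 and 5 ppm 72 genes (0.379%). No leading gene was called between 60 and 20 ppm, and Abcb1a (0.14), Gsta4 (0.47), Tsc22d3 (-0.36) and Mgam (-0.10) had differences near 0 on the log2 scale. Others that did not pass had larger differences, Fut4 of 3.10 ± 1.04 (SE), Cyp27a1 of 2.15 ± 0.76, Nckap5 of 1.33 ± 0.56 and Pck1 of -1.45 ± 0.61. Fabp6, an ileal bile acid-binding protein with the smallest p between 60 and 20 ppm, had 19910 CPM in the 60 ppm villus of mouse 447 and 0 to 3.83 CPM in the other 4, and the ileal genes Tmigd1 and Slc34a2 were likewise high in that library alone. The count between 60 and 20 ppm was 43 without mouse 447, 24 and 36 without mice 369 and 366, and 130 and 119 without mice 446 and 450.

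Between 5 and 20 ppm, Pck1 fell from 333 ± 109 CPM (SD, n = 4) to 45.4 ± 21.7 CPM (SD, n = 4), a log2 difference of -2.90 ± 0.56 (SE; adjusted p = 0.005997). Ada was 128 ± 78.8 CPM and 9.4 ± 12.3 CPM (-3.88, adjusted p = 0.00137), Gzmb 61.1 ± 24.4 CPM and 6.96 ± 2.28 CPM (-3.14, adjusted p = 0.001165), Tnik 98.7 ± 14 CPM and 39.5 ± 16 CPM (-1.34, adjusted p = 0.005997), and Apol7a, Enpp3 and Slc28a2 were also lower at 20 ppm. Epha2 was 207 ± 67 CPM and 589 ± 151 CPM (1.51, adjusted p = 0.02802), Myh3 1.89 ± 2.23 CPM and 32.5 ± 15.9 CPM (3.95, adjusted p = 0.01925), and Arih2 (1.25, adjusted p = 0.09971) was higher too. Tsc22d3 (-0.71, adjusted p = 0.462), Gsta1 (1.18, adjusted p = 0.257) and Abcb1a (0.89, adjusted p = 0.236) did not pass between 5 and 20 ppm. Tsc22d3 fell from 327 CPM to 98.3 CPM between 0 and 5 ppm (log2 fold change -1.73, adjusted p = 0.0142). It was also lower at 1.4 ppm (log2 fold change -1.27, adjusted p = 0.0253). The count between 20 and 5 ppm was 17, 26, 33 and 39 without mice 288, 286, 367 and 368 and 184 without mouse 289. Against the shared untreated villi, 94 genes (0.494%) were called at 5 ppm and 1581 (8.31%) at 60 ppm. Of the same 19020 genes tested, 0 were called at 0.1 ppm, 393 at 1.4 ppm and 1389 at 180 ppm. The count thus did not rise at every step of concentration.

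**Figure D5:**
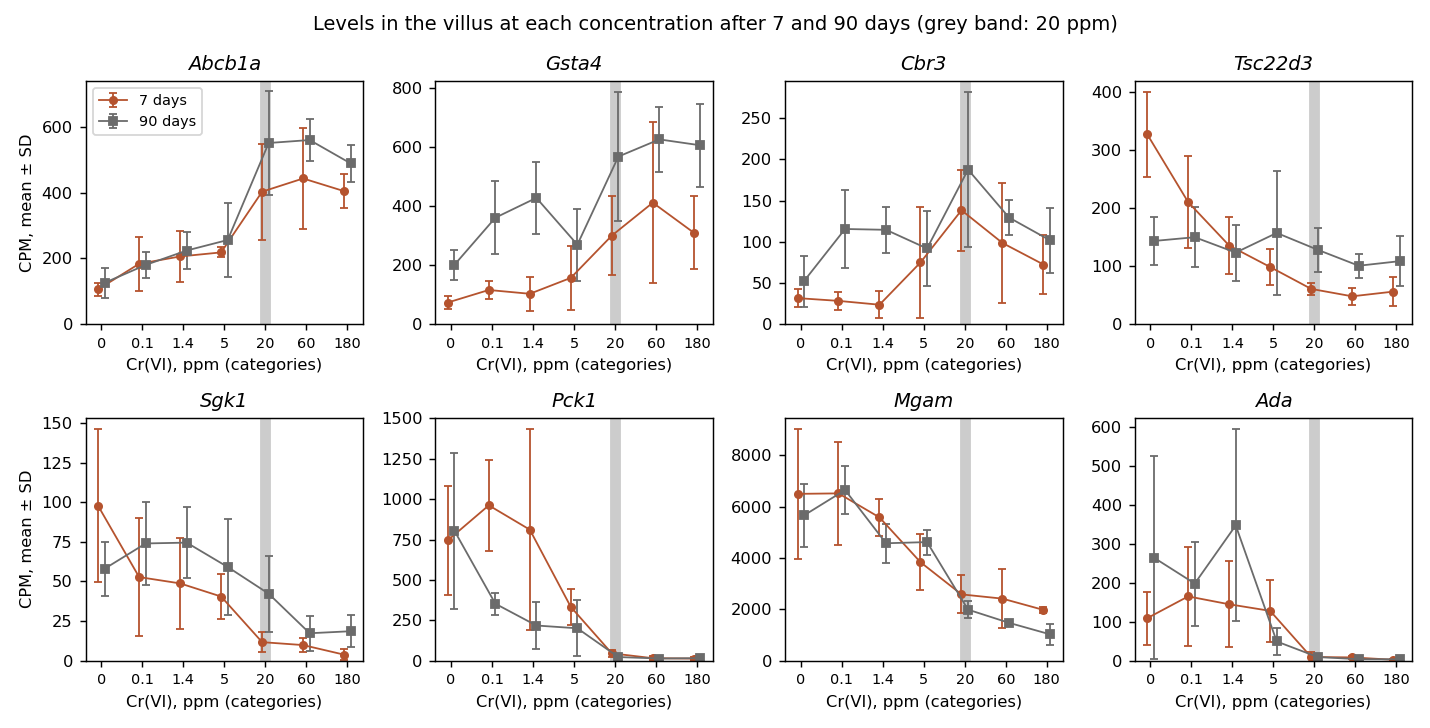
Mean CPM ± SD of 8 named genes in the villus at each concentration of Cr(VI) (categories on the x axis) after 7 days (circles) and 90 days (squares), with a grey band at 20 ppm. At 7 days Tsc22d3 fell from 327 CPM untreated to 98.3 CPM at 5 ppm and 60.5 CPM at 20 ppm, whereas Ada was 109 CPM untreated, 128 CPM at 5 ppm and 9.4 CPM at 20 ppm.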

How the data were processed

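TempO-Seq libraries of mouse duodenal villus and crypt were analysed. Per the labels and the methods of the study, reads were demultiplexed with bcl2fastq 2.17.1.14, aligned to the probe sequences with Bowtie (version not given in the sources used here) and deposited by the authors as raw counts per probe, without normalization. The genome build behind the probes is not given in the sources used here. The authors left libraries of low depth or gene diversity out of their own comparisons. Gene coordinates and promoters came from GRCm38.

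Counts of all libraries and 28 groups were fitted together in edgeR 4.0.16 (quasi-likelihood F test, legacy = FALSE, TMM scaling, filterByExpr; limma 3.58.1, R 4.3.3), which left 26365 probes of 19020 genes. P values were adjusted over all probes by the Benjamini-Hochberg method, and adjusted p under 0.1 was called. Gene symbols were read from the row names, and lists and named genes use 1 probe a gene, that with the highest total count. Levels are CPM and changes are log2. A group with at most 3 counts in every library gave a fold only as a bound. In the exposed against untreated villi, replicates were separate mice. The 9 villi had 2356120 to 4367596 counts, so 3 counts amount to 0.72 to 1.28 CPM, and this floor covers counting error only.

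Named genes were, in each direction, the first 12 called genes by adjusted p, taking only genes without overlap of the groups, up to 4 called members of each list with the smallest adjusted p (for lists with fewer than 2 called, the 2 with the highest mean CPM), and the 2 genes with the smallest p in each comparison of changes. Other members printed were chosen after their values were seen. The comparison, its members and the lists were chosen with earlier results of these data known.

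Villus and crypt of a mouse came from adjacent sections of the same animal, which is the source of the pairing. The deviations of villus and crypt from their group means correlated over 0.1 in 6 of 9 mice, and in 5 of 9 the own crypt was the closest. The mouse block was fitted on 19 libraries of the 4 groups, and this fit and the fits without mice 48 and 49 were chosen after seeing the data. Alternatives were the legacy fit, DESeq2 1.42.0, DESeq2 size factors, other filters, smaller fits, summed probes, depth as a covariate, thinned counts, a threshold of 0.05 and leaving out each library. The procedure was tested on simulated data. Figures were drawn with matplotlib 3.10.9 and pandas 2.3.3 in Python 3.11.15.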

Additional observations from a re-analysis of the deposited data

Results flagged for a closer look

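Of 244 sets of values from 1 gene or marker sum in 1 group, 23 held a library far from the others by Dixon's criterion, where chance gives about 1 in 20. Values are CPM. In the untreated villi these were the Brunner gland marker sum of 160.6 (mouse 46), Gsto2 of 7.04 and Vwa8 of 407.6 (mouse 47), the low Xdh of 94.15 and Enpp3 of 240.6 and the high Rpl4 of 2458 (mouse 48), P4hb of 688.8 (mouse 49), and Aldh1a1 of 16.56, Plin2 of 391.7 and Bhlhe40 of 139.4 (mouse 50). Each call for Gsto2, Vwa8, Xdh, Enpp3, Aldh1a1 and Plin2 was kept without that library. In the exposed villi they were Fut4 of 3.769, Cybrd1 of 5.276, Zbtb16 of 5.653 and Fabp6 of 6.407 (mouse 366), Cd200r2 of 3.692, Cebpb of 210.2, Ang4 of 32.73, Rpl4 of 2268 and Tmigd1 of 1.477 (mouse 367), the Brunner gland sum of 12.12, Gsta4 of 502.1 and Hspa1b of 4.039 (mouse 368), and Guca2a of 79.72 (mouse 369).

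For 34 named genes the change at 20 ppm differed between 90 and 7 days by the interaction term of the edgeR fit (adjusted p under 0.1). The differences are on the log2 scale, against a median of 0.69 over all probes. Upward were Fut4 (5.057), Hspa1b (4.806), Zbtb16 (4.604), Ass1 (4.391), Angptl4 (3.533), Pla2g2a (2.742), Sgk1 (2.627), Irgm2 (2.595), Abhd17b (2.354), Tsc22d3 (2.269), Mtfr1 (2.258) and Pdk4 (2.096). Smaller upward differences were those of Cgrrf1 (1.819), Fth1 (1.771), Hsph1 (1.588), Erbb3 (1.538), Ero1l (1.359), Npc1l1 (1.255), Herpud1 (1.166), Vwa8 (1.083), Tjp3 (1.053), H2-K1 (1.009) and Tnik (0.998). Downward were Cdc25b (-4.343), Aldh1a1 (-2.484), Egln3 (-2.058), Guca2a (-2.012), Cox6a1 (-1.758), Cox5b (-1.541), Tm4sf5 (-1.359), Sars (-1.208), Atp5k (-1.081), Psmb6 (-1.013) and Cox6b1 (-1.013). Abhd17b and Mtfr1 had the smallest p of this comparison. The others were taken only if called at 7 days, and those 7-day values also enter the difference.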

How the results depend on the processing

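Counts of DEGs moved with the fit far more than the direction of named genes did. At 20 ppm and 7 days the 654 genes (278 higher, 376 lower) became 340 (127, 213) in the legacy fit, 1337 (474, 868) with DESeq2, 1079 (495, 585) at a mean count of at least 10, 133 (61, 72) in the villi of 7 days alone, 184 (76, 108) in the 2 groups alone and 295 (123, 172) at adjusted p under 0.05. Leaving out 1 library gave 203 to 1053 genes, 109 to 510 higher and 94 to 543 lower. Against the crypt, 0 became 81 with DESeq2, 3 at a mean count of at least 10 and 2 without the villus of mouse 48 and the crypt of mouse 49, and 0 to 67 without 1 library. The mouse as a block gave 88 genes, and 37 without mice 48 and 49, against 0 in the same 4 groups without the block. For 90 against 7 days the 2617 genes became 4935 in the legacy fit and 1692 at adjusted p under 0.05, and 1506 to 3112 without 1 library. Between 60 and 20 ppm the 62 genes became 619 with DESeq2, 157 at a mean count of at least 10, 19 in the villi of 7 days, 0 in the 2 groups alone (647 probes at unadjusted p under 0.05), 104 with summed probes, 142 with thinned counts and 33 at adjusted p under 0.05, and 24 to 130 without 1 library. Between 20 and 5 ppm the 72 genes became 754, 255, 3 and 12 in the first 4 of these, 155 with thinned counts and 32 at adjusted p under 0.05, and 17 to 184 without 1 library. The legacy fit called 67 genes between 60 and 20 ppm, 43.3% of them higher against 56.5%. With DESeq2 size factors 40 genes were higher and 41 lower between 20 and 5 ppm, against 61.1% higher. The causes were not tested.

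Of 81 named DEGs none changed direction. DESeq2 ended 7 calls, thinned counts 6, the legacy fit 24, the villi of 7 days alone 34 and the 2 groups alone 26 of 78, and size factors or depth as a covariate ended 0. Values that had not passed changed sign without some libraries. Over all these alternatives and the fits without each library, ranges were -0.068 to 0.27 for Slc30a5, -0.226 to 0.071 for Sc5d and -0.10 to 0.344 for Srebf2. They were -0.137 to 0.252 for Cebpb, -0.843 to 0.10 for Hmgb2 and -0.26 to 0.448 for Rpl4. Rpl21 ran from -0.314 to 0.371 and Fabp6 from -3.67 to 1.449. Rpl21 was at -0.001 with thinned counts and Fabp6 at 0.195 with DESeq2. Changes of genes near the floor of 0.72 to 1.28 CPM were not detectable at this depth.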
